A study of Mus musculus with 6 samples.

Results

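The primary cilium and cystic kidney genes were taken by symbol from a deposited expression table of mouse ureteric epithelium. The rule took symbols made of Ift, Bbs or Nphp and a number, and 16 genes by name: Pkd1, Pkd2, Pkhd1, Arl13b, Mks1, Tmem67, Tmem216, Rpgrip1l, Cc2d2a, Inpp5e, Invs, Anks6, Nek8, Glis2, Glis3 and Ahi1. The rule uses symbols and no measured values, but it was written with earlier results of these data known. It found 40 members among 21456 symbols with values, of which 13 were Ift, 8 Bbs and 3 Nphp symbols. The study sequenced mRNA of ureteric epithelium from developing kidneys of CFW strain mice at E16.5 (embryonic days), with 3 libraries per group. Tip cells were Wnt11RFP+;Hoxb7GFP+, so they carried a red reporter named for Wnt11 and a green reporter named for Hoxb7. Stalk cells were Wnt11RFP-;Hoxb7GFP+, that is, green without red, and both groups therefore came from reporter animals. The groups are defined by reporter fluorescence, and no label ties the libraries to separate animals, so p-values measure only the spread between these samples, and that spread could be technical.

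The primary cilium is a sensory projection that grows from a centriole, the basal body, on most epithelial cells of the kidney. Intraflagellar transport carries cargo along it, with the B complex tied to outward movement and the A complex to return movement and membrane protein entry, while the BBSome carries membrane proteins out. The transition zone at its base is a gate built by nephronophthisis, Meckel and Joubert syndrome proteins, and the inversin compartment lies just beyond it. Polycystin-1 and polycystin-2, the products of Pkd1 and Pkd2, and fibrocystin, the product of Pkhd1, are found in the cilium, and mutations in their genes cause dominant and recessive polycystic kidney disease.

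The group labels were checked with marker genes. All 8 tip markers, such as Ret and Wnt11, were higher in tip, where their summed RPKM, a read count divided by transcript length and by the number of mapped reads, was 1045 to 1833 against 49.7 to 118 in stalk. All 8 stalk and collecting duct markers, such as Wnt7b and Aqp2, were higher in stalk, with sums of 1146 to 1754 against 11.5 to 33.7 in tip. On the second principal component of all tested genes, which holds 9.21% of the variance, tip replicate 2 and stalk replicate 1 lay away from the other 4 libraries. Sequencing depth was unknown, since the table holds RPKM and no counts.

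Every member had values in both groups, and none was listed at 0 in any library. Genes whose mean reached 1 RPKM were tested with limma on log2(RPKM + 1), with Benjamini-Hochberg adjustment over 12532 genes, and 39 members passed this filter. The adjusted p threshold of 0.05 was passed by 11 of 39 members (28.2%), written below as called, against 48.6% of all tested genes (6089) and 46.6% of the 9663 genes within the members' range of levels. Higher in tip were 7 members (17.9%, against 26.1% of all tested genes), among them Nphp4, Bbs7, Ift57, Ift122, Ift80 and Ift74. Higher in stalk were 4 members (10.3%, against 22.5%): Anks6, Glis2, Pkhd1 and Bbs9. With a pseudocount of 1, none of the called members differed by 1 log2 unit or more, against 17.1% of all tested genes that were called and differed by that much. With a pseudocount of 0.1, Bbs7 (1.15) and Nphp4 (1.03) passed that size, 2 of 39 members (5.13%, against 20.8% of all tested genes). Differences ranged from -0.85 to 0.74 on the log2(RPKM + 1) scale (tip minus stalk), which understates the change of low genes. Their median was 0.05, as was that of all tested genes, and the median size was 0.28 for the members and 0.39 for all tested genes. The median standard error was 0.14 for the members and 0.15 for all tested genes. Whether the share among the members differs from the share among all genes was not tested.

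**Figure D1:**
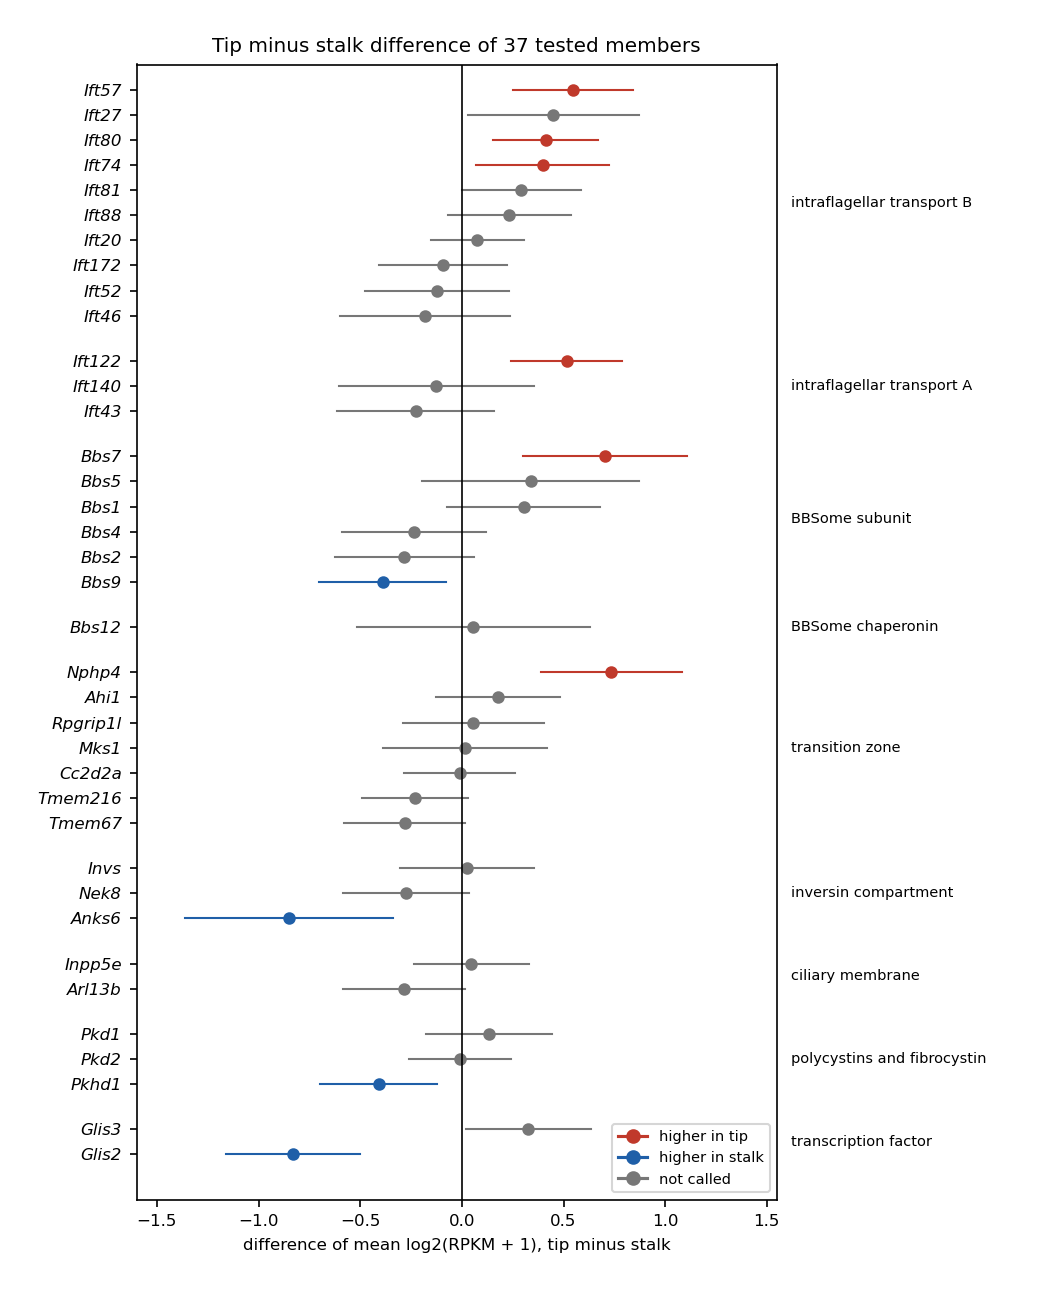
Tip minus stalk difference of mean log2(RPKM + 1) for 37 tested members by role, with 95% confidence intervals from limma (n = 3 per group). Called members reach from -0.85 (Anks6) to 0.74 (Nphp4), and grey points are members that did not pass the test.

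The libraries of tip and stalk did not overlap for 21 of 39 members (53.8%, against 57.8% of all tested genes), with tip above stalk for 13 (against 31.3% of all tested genes) and stalk above tip for 8 (against 26.5%). An unadjusted p below 0.05 was found for 13 of 39 members (33.3%, against 55.2% of all tested genes). The summed level of the 39 tested members was 351, 311 and 341 RPKM in tip replicates 1, 2 and 3 and 308, 347 and 357 RPKM in stalk replicates 1, 2 and 3, so the sums of the groups overlapped. The lowest sum of each group lay in the library that stood apart. Tip replicate 2 was the lowest tip library for 23 of 39 members (59.0%, against 46.1% of all tested genes), and stalk replicate 1 was the lowest stalk library for 20 (51.3%, against 50.6%). Without these 2 libraries, 8 members passed as higher in tip and 3 as higher in stalk (all genes: 3103 and 2917 of 12564). Without tip replicate 3, 4 members were called higher in tip, and the count over all genes fell from 3274 to 2541. The count of members higher in stalk was 2 with any 1 tip replicate left out, or stalk replicate 3. In these fits 2256 to 2586 of all genes were higher in stalk, against 2815 with all libraries. Taking only the highest row of each symbol in place of the sum over its rows left 3 of 37 tested members called higher in tip. Over all genes 2853 of 12144 were higher in tip in that fit. Nphp4, Ift57 and Glis2 were called in every alternative in which they were tested.

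**Figure D2:**
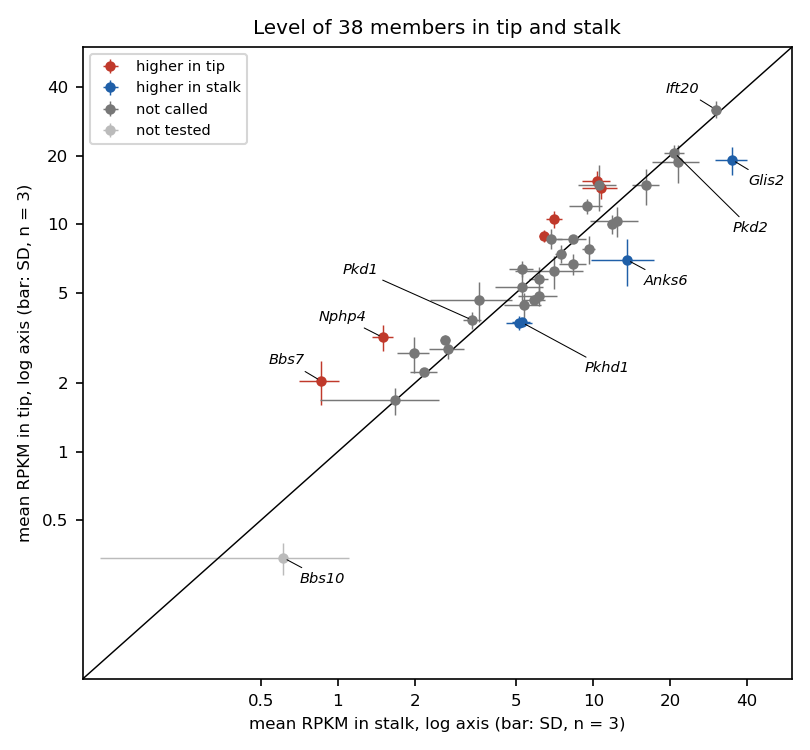
Mean RPKM in tip against mean RPKM in stalk for 38 members, both on log axes, with bars of 1 SD (n = 3) and the line of equal level. Most members lie near the line, Nphp4 and Bbs7 lie above it, and Glis2 and Anks6 lie below it.

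Levels per length differed more between members than between groups. The median member stood at 7.03 RPKM, below the median of 10.7 RPKM over all tested genes. Ift20 was the highest at a mean of 31.0 RPKM, above 82.2% of tested genes, followed by Glis2 at 27.0, Pkd2 at 20.7 and Ift46 at 20.1 RPKM. Bbs10 was the lowest, with a mean of 0.476 RPKM, and was the member left untested. By role, the median level of the B complex of intraflagellar transport was 12.6 RPKM, that of the transition zone genes 5.26 RPKM and that of the BBSome subunits 4.25 RPKM.

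Of the 10 genes of the B complex, 3 were called, all higher in tip (Ift57, Ift80 and Ift74), and the median difference was 0.26. The share higher in tip was 30%, against 26.1% of all tested genes. None was called higher in stalk, against 22.5% of all tested genes. Ift57, a subunit of the peripheral part of the complex (chr16:49699233-49765126, plus strand, mm10), stood at 17.1, 14.0 and 15.4 RPKM in tip replicates 1 to 3 and 9.19, 11.7 and 10.1 RPKM in stalk. Every tip library was above every stalk library. The means were 15.5 ± 1.54 and 10.3 ± 1.30 RPKM (SD, n = 3), 1.50 times higher in tip, with a log2 difference of 0.55 ± 0.13 (SE, limma adjusted p = 0.00822). Ift80, also of the peripheral part (chr3:68892499-69004570, minus strand), stood at 8.75, 8.35 and 9.41 RPKM in tip and 6.69, 6.24 and 6.24 RPKM in stalk. The groups did not overlap, and the difference was 0.41 ± 0.11 (limma adjusted p = 0.0164). The call was lost without tip replicate 1 or 3. Ift74, which with Ift81 forms the tubulin-binding module (chr4:94614491-94693229, plus strand), stood at 16.1, 13.0 and 14.1 RPKM in tip and 11.4, 12.0 and 8.83 RPKM in stalk. It was the called member nearest the threshold, at 0.40 ± 0.14 (limma adjusted p = 0.0472), and the call was lost without tip replicate 1 or 3 or stalk replicate 1 or 3. Ift81 was at 0.29 and did not pass (limma adjusted p = 0.0908).

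The not called member nearest the threshold was Ift27, a small GTPase of the B complex that links it to BBSome export. It stood at 14.2, 11.8 and 18.5 RPKM in tip and 8.46, 11.5 and 11.6 RPKM in stalk, which did not overlap. Its difference was 0.45 (95% interval 0.03 to 0.87, limma adjusted p = 0.0741), and it passed when tip replicate 2 was left out (0.59). Ift20, the subunit that also resides at the Golgi (chr11:78536361-78541737, plus strand), stood at 34.1, 28.8 and 32.7 RPKM in tip and 31.6, 29.9 and 29.0 RPKM in stalk. The groups overlapped, and the interval of the difference was -0.15 to 0.31. The core subunits Ift88, Ift52 and Ift46 had differences of 0.23, -0.12 and -0.18, and the peripheral subunit Ift172 had -0.09. None of these passed the test.

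In the A complex, 1 of 3 genes was called (33.3%, against 48.6% of all tested genes). Ift122, a core subunit (chr6:115853470-115926699, plus strand), stood at 10.9, 9.50 and 11.2 RPKM in tip and 6.62, 6.89 and 7.64 RPKM in stalk. All tip libraries were above all stalk libraries, with a ratio of 1.49 and a difference of 0.52 ± 0.12 (limma adjusted p = 0.00768). Ift43, the member of this complex with the highest level, stood at 12.0, 9.08 and 9.81 RPKM in tip and 9.88, 12.1 and 15.0 RPKM in stalk. Its groups overlapped and its difference was -0.23. Ift140, another core subunit, was at -0.12 and did not pass.

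Many ciliary genes carry an X-box, the motif bound by RFX transcription factors, near their start site. RefSeq promoters (GRCm38.p6, 250 bases before to 50 after the start) were at hand for 32 of 40 members, and those without one included Tmem67, Ift80, Ift81, Ift122, Anks6 and Glis2. The X-box was searched on both strands with 1 to 3 bases between its arms, together with the arm GTTGCC alone, which overlaps it. The X-box was found in 3 of 32 member promoters (9.38%), and in 1.80% of 8744 promoters of tested genes and 1.65% of 27025 promoters of all symbols. GTTGCC was found in 12 of 32 (37.5%), and in 14.9% of tested genes and 14.1% of all symbols. The sequences below show the X-box matches and the GTTGCC matches of the other called members, with the matched letters in capitals, on the strand of the gene. They lie at chr16:49699199-49699228 and chr16:49699226-49699255 (Ift57), chr10:20952560-20952589 (Ahi1), chr19:4906605-4906634 (Bbs1), chr3:36613493-36613522 (Bbs7) and chr4:152478131-152478160 (Nphp4).
Ift57, X-box match 1: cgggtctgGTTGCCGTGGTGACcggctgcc
Ift57, X-box match 2: gccctgcgGTTGCCTGGTAACggtggggac
Ahi1, X-box: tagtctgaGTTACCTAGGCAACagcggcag
Bbs1, X-box: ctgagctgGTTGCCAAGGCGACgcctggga
Bbs7, GTTGCC: gaatgcgccccgGTTGCCttggaaaccggc
Nphp4, GTTGCC: tggtgcatcccgGTTGCCagctgatgttgg
Of the 3 genes with an X-box match, Ift57 was called higher in tip, while Ahi1 (0.18) and Bbs1 (0.30) did not pass the test. Bbs7 and Nphp4, shown because they were called, were higher in tip. The other members with GTTGCC were Arl13b, Bbs5, Ift27, Ift88, Ift140, Ift172 and Mks1, none of which was called. A match describes letters in a window and was not tested as a site.

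Of the 6 tested BBSome subunits, 1 was called in each direction, and the median difference was 0.04. The share was 16.7% each way, against 26.1% of all tested genes in tip and 22.5% in stalk. Bbs7, a BBSome subunit (chr3:36573142-36613477, minus strand), stood at 1.95, 1.65 and 2.53 RPKM in tip and 0.982, 0.910 and 0.685 RPKM in stalk. The groups did not overlap, with means of 2.04 ± 0.447 and 0.859 ± 0.155 RPKM (SD, n = 3). The ratio of 2.38 was the highest among the tested members, and the log2(RPKM + 1) difference was 0.70 ± 0.18 (limma adjusted p = 0.0108), or 1.15 with a pseudocount of 0.1. This call was lost without tip replicate 3. Bbs9, a further subunit (chr9:22475715-22888280, plus strand), went the other way, at 3.86, 3.80 and 3.37 RPKM in tip and 4.54, 5.14 and 5.74 RPKM in stalk. All stalk libraries were above all tip libraries, with a ratio of 1.40 and a difference of -0.39 ± 0.14 (limma adjusted p = 0.0440), a call lost with any 1 tip replicate left out, or stalk replicate 2 or 3. Bbs2, the BBSome member with the highest level, stood at 4.86, 4.33 and 5.29 RPKM in tip and 5.52, 5.49 and 7.36 RPKM in stalk. Its stalk libraries were all above its tip libraries, but the difference of -0.28 did not pass (limma adjusted p = 0.153). Bbs5, Bbs1 and Bbs4 were at 0.34, 0.30 and -0.23 and did not pass either. Among the chaperonin-like genes that help to assemble the BBSome, Bbs12 was at 0.06. Bbs10 was listed at 0.396, 0.341 and 0.287 RPKM in tip and 0.254, 0.405 and 1.18 RPKM in stalk, where 1 stalk library lay above the other 5.

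The median difference over the 8 genes of the transition zone was 0.03. Of them, 2 were called, both higher in tip (25%, against 26.1% of all tested genes). Of these, Nphp4 encodes nephrocystin-4, a protein of the gate that is mutated in nephronophthisis. Nphp4 (chr4:152476706-152563183, plus strand) stood at 3.54, 3.26 and 2.72 RPKM in tip and 1.56, 1.34 and 1.60 RPKM in stalk. The groups did not overlap, with means of 3.17 ± 0.416 and 1.50 ± 0.142 RPKM (SD, n = 3), a ratio of 2.12 and a difference of 0.74 ± 0.15 (limma adjusted p = 0.00433).

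The other 6 transition zone genes did not pass the test. Tmem216, a membrane protein of this gate and the member here with the highest level, stood at 11.2, 9.38 and 9.48 RPKM in tip and 11.6, 12.5 and 11.5 RPKM in stalk. Its stalk libraries were all above its tip libraries, by -0.23 (95% interval -0.49 to 0.03, limma adjusted p = 0.131). Tmem67, which encodes the membrane protein meckelin, was at -0.28 (limma adjusted p = 0.105). Rpgrip1l, Mks1 and Cc2d2a were at 0.06, 0.01 and -0.01.

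The inversin compartment and the ciliary membrane gave 1 call among 6 genes, against 48.6% of all tested genes called. Anks6, an ankyrin-repeat partner of the kinase Nek8 (chr4:47015669-47057427, minus strand), stood at 6.76, 5.47 and 8.68 RPKM in tip and 9.41, 14.4 and 16.8 RPKM in stalk. The groups did not overlap, but stalk replicate 1 was close to the highest tip library. The means were 6.97 ± 1.61 and 13.5 ± 3.76 RPKM (SD, n = 3), 1.94 times higher in stalk, with a difference of -0.85 ± 0.22 (limma adjusted p = 0.0136). Without stalk replicate 3 the call was lost. Nek8 was at -0.27 and Invs, which encodes inversin, at 0.02, and neither passed. At the ciliary membrane, the small GTPase gene Arl13b stood at 6.59, 7.91 and 8.75 RPKM in tip and 9.01, 10.2 and 9.67 RPKM in stalk. Its groups did not overlap, but the difference of -0.28 did not pass (limma adjusted p = 0.106). Inpp5e, a phosphoinositide phosphatase brought to the cilium by Arl13b, was at 0.05.

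The 2 polycystin genes did not pass the test. Pkd1 (chr17:24549834-24596508, plus strand) stood at 4.15, 3.54 and 3.65 RPKM in tip and 3.04, 3.50 and 3.54 RPKM in stalk. Its groups overlapped narrowly, with means of 3.78 ± 0.326 and 3.36 ± 0.279 RPKM (SD, n = 3) and a difference of 0.13 (95% interval -0.18 to 0.44, limma adjusted p = 0.444). Pkd2 (chr5:104459450-104505819, plus strand) stood at 22.4, 20.1 and 19.3 RPKM in tip and 19.7, 19.6 and 22.9 RPKM in stalk. The groups overlapped, and the difference was -0.01 (95% interval -0.26 to 0.24, limma adjusted p = 0.945). Pkhd1 (chr1:20057779-20618064, minus strand) stood at 3.69, 3.82 and 3.58 RPKM in tip and 5.72, 5.05 and 4.96 RPKM in stalk. All stalk libraries were above all tip libraries, with means of 5.24 ± 0.416 and 3.70 ± 0.118 RPKM (SD, n = 3), a ratio of 1.42 and a difference of -0.41 ± 0.13 (limma adjusted p = 0.0268). That call was lost with any 1 tip replicate left out, or stalk replicate 1.

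The Glis transcription factors, zinc finger proteins whose mutation gives nephronophthisis (Glis2) or cystic kidneys with diabetes (Glis3), had differences of opposite sign. Glis2 (chr16:4594713-4624924, plus strand) stood at 16.4, 21.9 and 19.2 RPKM in tip and 29.2, 37.5 and 38.1 RPKM in stalk. The groups were well separated, with means of 19.2 ± 2.74 and 34.9 ± 4.97 RPKM (SD, n = 3), 1.82 times higher in stalk, and a difference of -0.83 ± 0.14 (limma adjusted p = 0.00181). Glis3 stood at 13.0, 11.9 and 11.2 RPKM in tip and 10.1, 7.84 and 10.4 RPKM in stalk. All of its tip libraries were above its stalk libraries, and its difference of 0.33 did not pass (limma adjusted p = 0.0745).

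**Figure D3:**
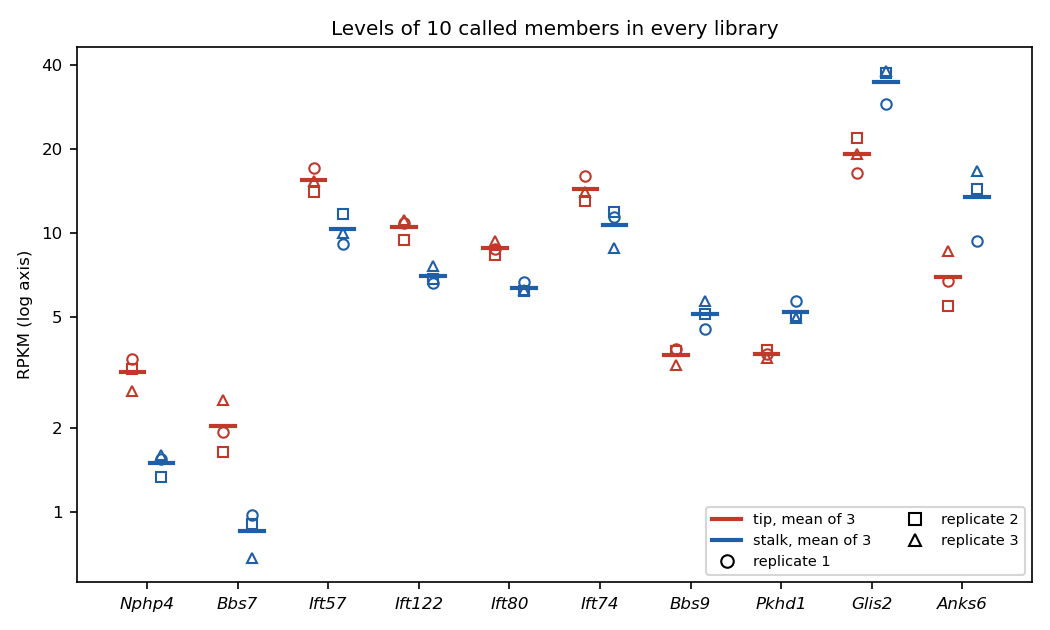
RPKM of 10 called members in each of the 3 tip and 3 stalk libraries on a log axis, with group means as bars and the replicate as the symbol. No member's tip libraries overlap its stalk libraries, and the groups come nearest for Anks6 (8.68 against 9.41 RPKM) and Ift74 (13.0 against 12.0 RPKM).

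Exons of 12 members share bases with another gene, and whether reads were counted by strand is not given in the sources used here. Among the called members these were Glis2, Ift57 and Pkhd1, whose overlapping genes stood below 1 RPKM. Pkd1 shares 693 exonic bases with Tsc2 on the opposite strand, which stood at 13.8 RPKM, so reads of the 2 genes could be mixed there. Inpp5e overlaps Pmpca, Tmem216 overlaps Cpsf7, Invs overlaps Tex10, Bbs4 overlaps Adpgk and Tmem67 overlaps Rbm12b2 in the same way.

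The table gives several rows for 33 of the 40 members, with no transcript identifier, and how reads were split between the rows is an estimate by the authors. Of 60 member rows with a mean of at least 1 RPKM, 6 were called (10%, against 29.8% of 20279 such rows of all genes). Those higher in tip included the highest rows of Ift57 and Nphp4, and higher in stalk were the highest row of Glis2, the second row of Anks6 and the third row of Ift20.

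Ift20, which did not pass as a gene, had a row, the third by level, at 2.39, 2.81 and 2.99 RPKM in tip and 4.30, 6.40 and 6.95 RPKM in stalk. All stalk libraries were above all tip libraries. This row was called higher in stalk (-0.86, limma adjusted p = 0.0166), while the higher rows were at 0.28 and 0.33. Its difference from the other rows, -1.18 ± 0.28 (SE), did not pass its own test over 12559 rows (limma adjusted p = 0.187). Over the 16 members with at least 2 such rows, 0 of 39 rows passed this test, against 0.326% of all rows compared. Where a member had 2 such rows, the comparisons mirrored each other, so the 39 are not separate tests. For Ift80 the highest row averaged 4.58 RPKM among tip and 4.38 RPKM among stalk libraries, a difference of 0.04, and the second row 2.74 and 1.38 RPKM, a difference of 0.65, and neither passed singly.

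**Figure D4:**
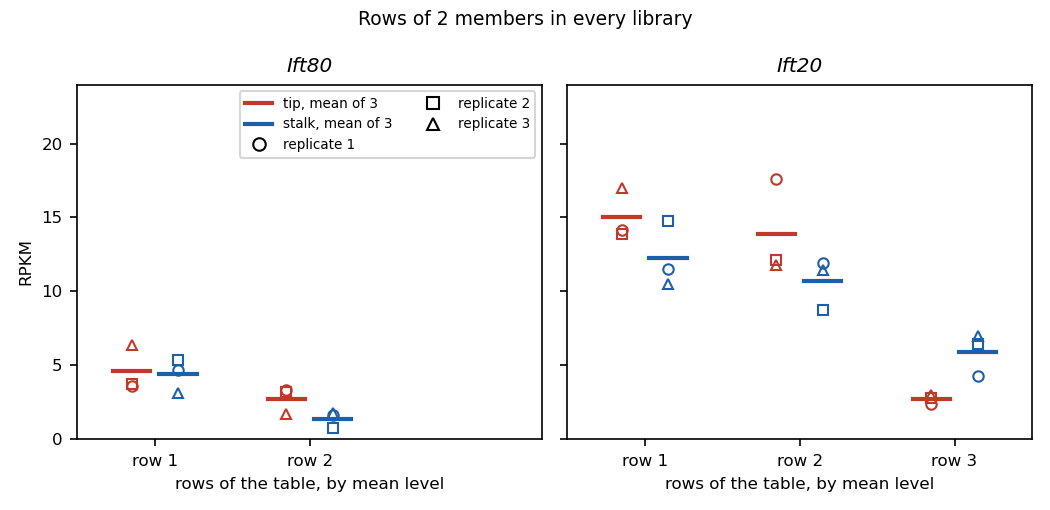
RPKM of the rows of Ift80 (2 rows) and Ift20 (3 rows) with a mean of at least 1 RPKM in each library, with group means as bars. The libraries of the groups overlap in the highest row of Ift80, and in the third row of Ift20 every stalk library is above every tip library.

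The members were set beside 10 lists of other cilium and cystic kidney genes, 120 genes in all, of which 101 were tested. Of these, 38 (37.6%, against 26.1% of all tested genes) were higher in tip by the test and 4 (3.96%, against 22.5%) in stalk. Called in either direction were 41.6%, against 48.6% of all tested genes. Their median was 0.29, against 0.05 for all tested genes. Without tip replicate 1 the count higher in tip was 24, and that over all tested genes fell from 3274 to 2511. Of 11 other intraflagellar transport subunits, 1 was called (9.09%, against 26.1% of all tested genes higher in tip), Ttc26, at 0.46 in tip. Of 9 ciliary motor genes, 22.2% were called (against 26.1%), Kif7 (0.83) and Wdr34 (0.56), both higher in tip. Of 10 other Bardet-Biedl genes and BBSome partners, 1 was called in each direction (10% each, against 26.1% in tip and 22.5% in stalk). Rab3ip, an exchange factor for the GTPase Rab8, was higher in tip (0.73) and Wdpcp was higher in stalk (-0.55). Of 14 other transition zone genes, 4 were called, all in tip (28.6%, against 26.1% of all tested genes). The largest differences were those of Iqcb1 (0.79), B9d2 (0.63) and Tmem231 (0.55).

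The basal body and centriole appendage list had 10 of 16 genes called, all higher in tip (62.5%, against 26.1% of all tested genes). Its median was 0.42, against 0.05 for all tested genes. Ccp110, which caps the centriole and holds back cilium growth, averaged 11.4 ± 1.36 RPKM in tip and 5.45 ± 0.363 RPKM in stalk (SD, n = 3), a difference of 0.94 (limma adjusted p = 0.000481). Cep41 (0.81) and Alms1 (0.73), the gene of Alstrom syndrome, followed. Without tip replicate 1 the list had 5 genes called, and without tip replicate 3 it had 6. Over all tested genes 4767 and 4979 were then called, against 6089 with all libraries. In the list of ciliary membrane cargo and GTPase genes, 5 of 10 were called, all in tip (50%, against 26.1%). Adcy3, an adenylyl cyclase of the cilium, averaged 3.72 ± 0.467 RPKM in tip and 0.696 ± 0.0524 RPKM in stalk (SD, n = 3), a difference of 1.47 (limma adjusted p = 0.000123). Gpr161, a ciliary receptor that restrains Hedgehog signalling, was at 1.13 (limma adjusted p = 0.000482), and Unc119 at 0.49.

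Of 14 tested genes of other cystic kidney diseases, 7 were called higher in tip (50%, against 26.1% of all tested genes). These were led by Alg8 (1.04), Lrp5 (1.03) and Dzip1l (0.76). Called higher in stalk was 1 (7.14%, against 22.5%), Bicc1 (-0.37), named here after its value was seen. Among 6 transcription factors of ciliary genes, Rfx7 was higher in tip (0.44) and Foxj1, which drives motile cilia, was higher in stalk (-0.49). Each made up 16.7% of that list, against 26.1% of all tested genes in tip and 22.5% in stalk. Of 16 motile cilium genes only 3 passed the filter, and the summed level of the 15 genes with values was 7.42 to 8.38 RPKM in tip and 6.37 to 8.23 RPKM in stalk. Dnah11 was the called gene among them, with means of 1.97 ± 0.501 RPKM in tip and 0.158 ± 0.0951 RPKM in stalk (SD, n = 3). Its mean over all libraries was 1.07 RPKM, so it passed the filter through tip alone. Rsph4a, with means of 0.263 RPKM in tip and 1.61 RPKM in stalk, fell below the filter and was not tested. Nor was Tekt1, with means of 1.11 RPKM in tip and 0.0608 RPKM in stalk. Of 8 cilium disassembly genes, 6 (75%, against 26.1%) were higher in tip. They were led by Ttk (2.0), Plk1 (1.57) and Aurka (1.49), all of which also act in mitosis. In stalk 1 was higher (12.5%, against 22.5%), Hdac6 (-0.32), also named after its value was seen.

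**Figure D5:**
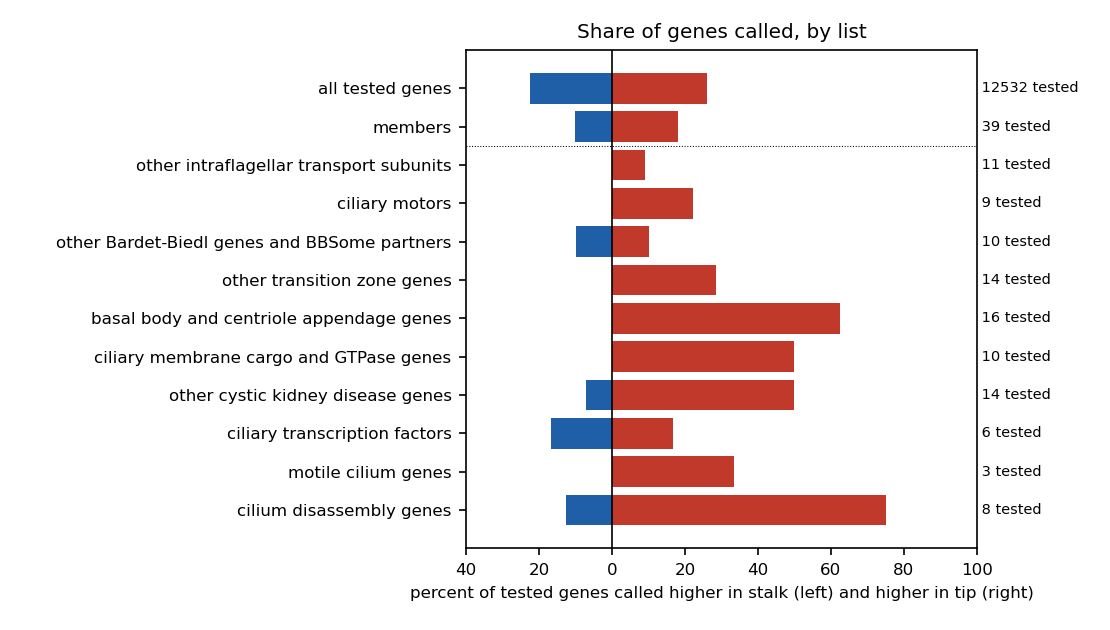
Percent of tested genes called higher in stalk (blue, to the left) and higher in tip (red, to the right) for all tested genes, the 39 tested members and 10 lists of other genes, with the number tested at the right. The basal body list reaches 62.5% and the disassembly list 75.0% in tip, and the members 17.9%.

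Other markers moved between the groups beside these values. Of 8 DNA replication and mitosis genes, 8 were higher in tip, with sums of 445 to 547 RPKM in tip and 132 to 157 RPKM in stalk, beside the members and lists that were higher in tip. Of 7 tested endothelial markers, 7 were higher in stalk, with sums over all 8 of 41.9 to 73.6 RPKM in stalk and 6.01 to 8.84 RPKM in tip, and none of the 8 was at 0 in all libraries. Of 8 genes that respond to tissue dissociation, 6 were higher in stalk, with sums of 3133 to 5123 RPKM against 1989 to 3066 RPKM. The part of these in the differences of the members was not tested. The 8 stromal markers summed to 4.42 to 9.90 RPKM in tip and 5.14 to 9.21 RPKM in stalk, and 0 of 4 tested passed. Of the ureteric epithelium markers 1 was higher in tip and 4 in stalk, of 2 tested nephron progenitor markers 2 in tip, and of 6 early nephron markers 3 in tip and 2 in stalk. Podocyte, proximal tubule and erythroid lists had no tested marker called, the loop and distal tubule list had 1 in tip, and the immune list had 1 in each direction. In these bulk libraries fewer cells of a type and less RNA per cell cannot be told apart.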

How the data were processed

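The authors deposited 1 table of RPKM values, with 1 or more rows per gene symbol, and its header names the 6 samples. Tools named in the submitters' processing notes are TopHat2, Partek and bcl2fastq 2.17, with build mm10. The RNA came from a Qiagen RNeasy micro kit and the libraries from a Kapa stranded mRNA-Seq kit, per the labels' protocols. The annotation, quantification settings and strand use are not given in the sources used here. Of 93615 rows, 24545 held a question mark in all 6 columns and were left out. RPKM was summed over the rows of each symbol, and a mean of at least 1 RPKM was required (12532 genes). The members and gene lists were chosen with earlier results of these data known. Some members enter the counts and sums but are not reported singly here.

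Groups were compared on log2(RPKM + 1), a pseudocount of 1, with limma 3.58.1 (R 4.3.3), fitting a mean-variance trend without a block. Tests were two-sided, p-values were adjusted by Benjamini-Hochberg over all 12532 genes, and 0.05 was the threshold. Rows of a symbol with a mean of at least 1 RPKM were compared by the difference of each row from the sum of the other such rows. Variances were per row, moderated by limma without a trend. Library sums of 345123 to 366035 RPKM reflect the unit, not the depth, and depth is unknown, so no counting interval is given. Coordinates came from GENCODE M21 (mm10), where all 40 members were found, and promoters from RefSeq (GRCm38.p6). Older symbols of list genes were matched through RefSeq synonyms. Values in every library are given for the called members reported singly, the highest member of each role, the 3 polycystic kidney disease genes and the members nearest the threshold. From each list up to 3 called genes with the largest differences are named.

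Alternatives were pseudocount 0.1, no filter, a minimum of 5 RPKM, median-ratio scaling, the highest row of each symbol, no trend, a replicate block, each library left out, and tip replicate 2 and stalk replicate 1 left out together. Comparison with genes in the members' range of levels and the test of single rows were added after seeing the data.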

Additional observations from a re-analysis of the deposited data

How the results depend on the processing

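Median-ratio scaling gave 6148 genes called (2984 in tip, 3164 in stalk, against 3274 and 2815) and moved the median of all genes to -0.0071. The 7 members called higher in tip were 3 of 37 tested with the highest row of each symbol, where Bbs7 was not tested. The 4 higher in stalk were 2 without a filter (2851 of 21456 genes) and 2 with the replicate block (2380 of 12532). At a minimum of 5 RPKM, 26 members were tested and 2 were higher in stalk (2110 of 9156 genes). Pkhd1 and Bbs9 fell below that minimum and were not tested. With the replicate block, 5096 genes were called, 2716 of them higher in tip, with 5 members higher in tip. Deviations from the group means correlated at -0.30, -0.34 and 0.09 between same-numbered libraries. The highest correlation was 0.56, between tip replicate 2 and stalk replicate 1. With 3 libraries per group these values cannot show whether the numbers mark pairs.

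With 1 library left out, genes called ranged from 4767 to 5853. Of all genes, 2511 to 3077 were higher in tip and 2256 to 2861 in stalk. Members higher in tip ranged from 4 to 8, members higher in stalk from 2 to 3, and the members' median from -0.01 to 0.09. In the same fits, the count higher in tip in the lists outside the rule ranged from 24 to 36 and that in stalk from 1 to 4. The latter was 6 without tip replicate 2 and stalk replicate 1. It was 2 of 71 tested genes at a minimum of 5 RPKM and 1 with the replicate block.

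The sign turned only for members that were not called. With 1 library left out, or tip replicate 2 and stalk replicate 1 together, Bbs12 ranged from -0.23 to 0.223, Cc2d2a from -0.0563 to 0.0544, Ift140 from -0.333 to 0.0512, Ift172 from -0.151 to 0.00394, Ift52 from -0.218 to 0.0247, Inpp5e from -0.0285 to 0.137, Invs from -0.0123 to 0.109, Mks1 from -0.100 to 0.149, Pkd2 from -0.0696 to 0.061 and Rpgrip1l from -0.0131 to 0.143. Without tip replicate 2 and stalk replicate 1, Bbs12 was -0.194 and Cc2d2a 0.0266. With scaling, Inpp5e was -0.00563, Invs -0.0169 and Mks1 -0.0355. With the highest row, Inpp5e was -0.203, Invs -0.000435 and Nek8 0.00966. Of the called members, the highest row ended the calls of Ift122, Ift80, Ift74, Bbs9 and Anks6, the replicate block those of Ift80, Ift74, Bbs9 and Pkhd1, the absence of a filter those of Ift74, Bbs9 and Anks6, and scaling or no trend that of Ift74. Pkhd1 was also lost without tip replicate 2 and stalk replicate 1. Tmem67 passed with the highest row. Sizes of 1 log2 unit or more were also reached by Anks6 without stalk replicate 1 (-1.07) or without tip replicate 3 and by Glis2 without tip replicate 2 and stalk replicate 1 (-1.05). The causes were not tested. Unknown depth limits what can be said of Bbs10 and of other low genes.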
